A study of Mus musculus with 6 samples.

Results

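The Notch receptor genes Notch1, Notch2, Notch3 and Notch4, the ligand genes Dll1, Dll4, Jag1 and Jag2, and the target genes Hes1 and Hey1 were followed in cultured aortic cells of female and male mice. These 10 genes were taken by their symbols from the 54532 genes of the count table. The libraries, 3 female and 3 male, came from primary cultures that the labels call mouse aortic endothelial cells, all of wild-type genotype and all untreated. Strain and age are not in the labels. Nor do these tell whether each library had its own animal or culture, and p-values then reflect the spread among these libraries alone, which could be technical. All cultures grew in serum-containing F-12 medium supplemented with heparin and growth factors for endothelium, and mRNA was selected by its poly-A tail. The comparison asks how the sexes differ in these genes.

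Notch receptors are membrane proteins that are cut after they bind a Delta-like or Jagged ligand on a neighbouring cell. An ADAM protease and then the gamma-secretase complex release the intracellular domain, which joins the DNA-binding protein RBPJ and a Mastermind coactivator in the nucleus and turns on genes of the HES and HEY families. In blood vessels, Notch1, Notch4, Dll4 and Jag1 are known from endothelium, where Notch signalling sets arterial identity and restrains sprouting, and Notch3 is known from smooth muscle cells and pericytes. Notch2 and Jag1 are found in many mesenchymal cells as well.

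The labelled cell type was not matched by its defining markers. Cdh5, Tie1, Cldn5 and Robo4 had 0 counts in every library, and 12 of 15 endothelial markers stayed under 1 CPM (counts over the TMM-scaled library total, set to a common size) throughout. Pecam1 averaged 0.785 CPM in female libraries, against 0.554 CPM in male libraries. The summed level of the 15, nearly all of it from Eng and Flt1, was 225 to 242 CPM in female libraries and 270 to 279 CPM in male ones. That of 10 fibroblast markers was 11815 to 12676 CPM in female libraries and 6529 to 7133 CPM in male ones. Its largest part, Col3a1, averaged 4976 CPM in female libraries and 2014 CPM in male ones. Col1a2, the next in level, averaged 1911 CPM in female libraries and 1782 CPM in male ones. Thy1, Fap and S100a4 averaged lower in female libraries. The sex labels held, with Xist between 944 and 1374 CPM in female libraries and at most 0.532 CPM in male ones, and Ddx3y, Eif2s3y, Kdm5d and Uty at 0 counts in female libraries only. Library totals were 17410996 to 22993574 counts, and 0 counts in a library allow up to 0.128 to 0.171 CPM (3 counts; counting error only).

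One library stood apart in a way that touches these genes, several of which are long. Male replicate 3 correlated with the other male libraries at 0.974 and 0.982 (log2 CPM), against at least 0.990 among female libraries. Its levels also followed gene length. Among the sixth of tested genes that are longest in the deposited table (7767 bases or more), the median gene was 0.39 lower on the log2 scale in male replicate 3 than in the mean of male replicates 1 and 2, and among the shortest sixth it was 0.35 higher. The 4 receptor genes lie in the longest sixth. Notch1, Notch2 and Notch3 were lower in male replicate 3 by -1.15, -0.94 and -1.16 on the log2 scale, whereas Notch4 differed by -0.14. Male replicate 1 followed length the opposite way. Its median deviation from the mean of the 6 libraries was -0.17 on the log2 scale in the shortest sixth and 0.19 in the longest, against 0.23 and -0.22 in male replicate 3. For the receptors, Hes1 and several other genes, values without male replicate 3 are given too. Whether RNA quality or library preparation differed was not tested.

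**Figure D1:**
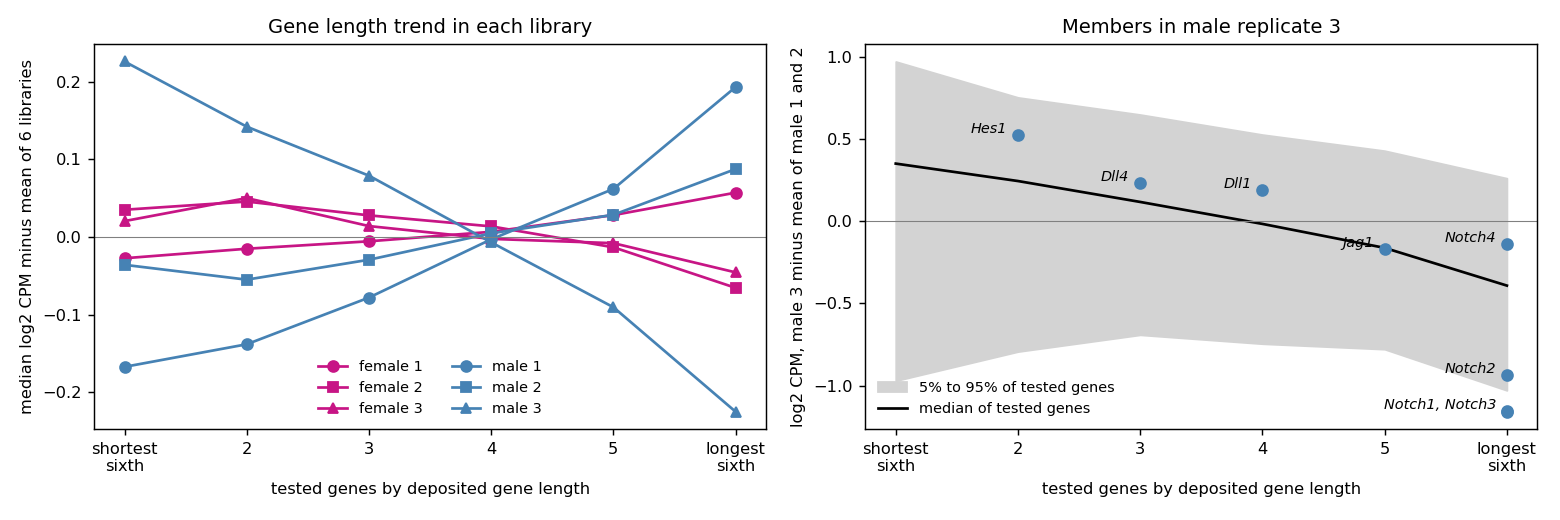
Left, median deviation of log2 CPM from the mean of the 6 libraries (vertical axis) for tested genes in sixths of deposited gene length (horizontal axis), one line per library. Right, log2 CPM of male replicate 3 minus the mean of male replicates 1 and 2, with members as points, the median of tested genes as a line and their 5% to 95% range shaded. Male replicate 3 falls with length, and Notch1 and Notch3, at -1.15 and -1.16, lie below the shaded range of the longest sixth.

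Female libraries held less Notch1, Notch4, Dll1 and Jag1 and more Notch2. Of the 10 genes, 8 had enough counts to be tested. By edgeR's quasi-likelihood test with Benjamini-Hochberg adjustment over 14932 genes, 1 of these was higher in female libraries, 4 were lower and 3 missed an adjusted p under 0.05. Over all tested genes 18.3% were called, 9.68% as higher and 8.62% as lower. The sexes did not overlap in CPM for 5 of the 8, with female above in 1 and below in 4, where 35.9% of all tested genes did not overlap, 19.2% with female above and 16.7% with female below. The median log2 fold change, female over male, was -0.63 over the 8 tested members and -0.01 over all tested genes. In such bulk samples, fewer cells of a type and less RNA per cell cannot be told apart.

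**Figure D2:**
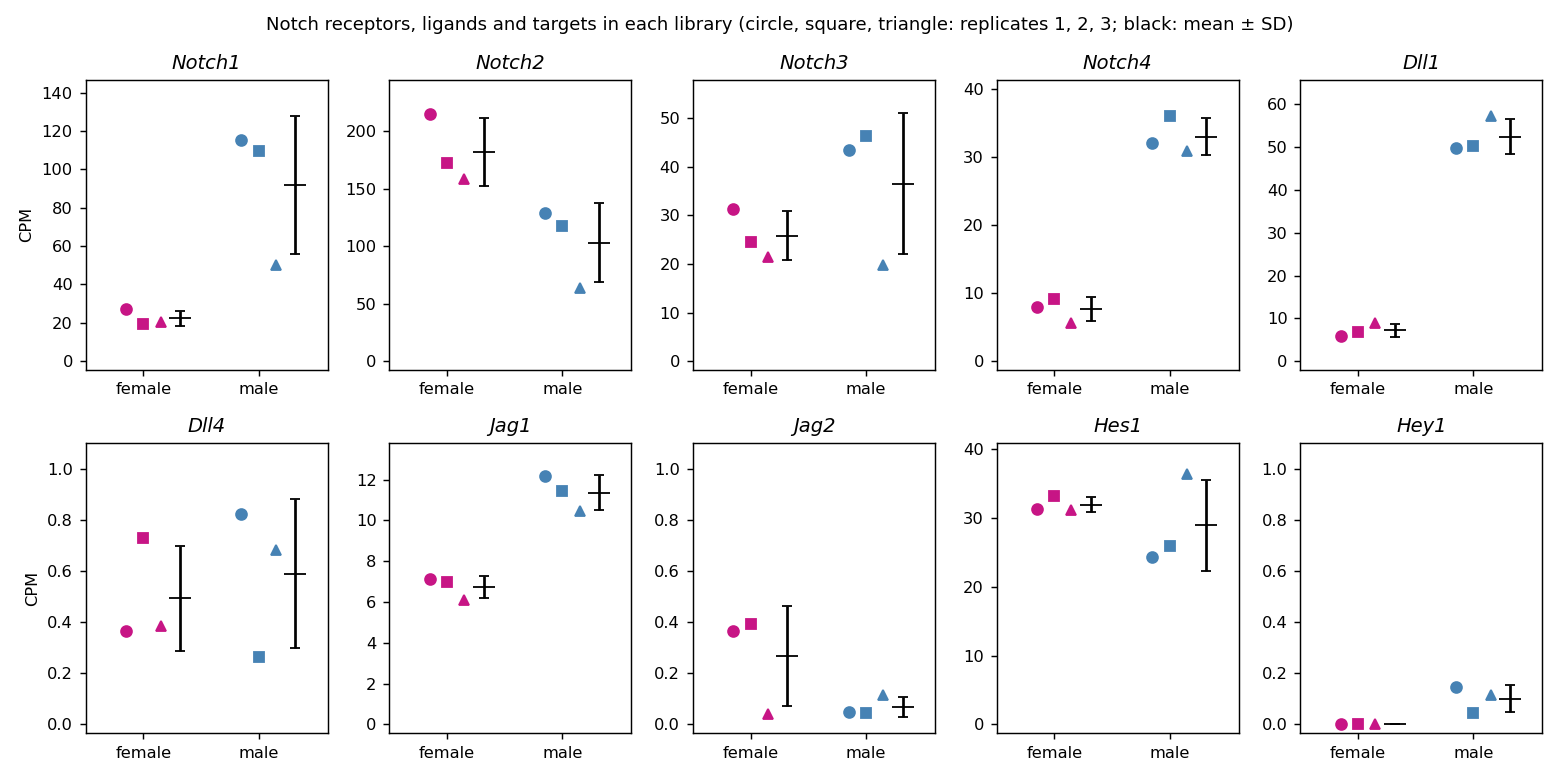
CPM of each member (vertical axis, from 0, with its own scale in each panel) in female and male libraries (horizontal axis), with symbols for the replicates and black bars for mean ± SD of 3 libraries. Notch1, Notch4, Dll1 and Jag1 lie lower in all 3 female libraries and Notch2 higher, while Dll4, Jag2 and Hey1 stay under 1 CPM.

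The start regions of the 5 members that passed the test are shown here because these are the members whose levels differed. The sequences come from RefSeq's promoter table (GRCm38.p6), which held windows for 8 of the 10 members and none for Hes1 and Hey1. Each is written 5′ to 3′ on the strand of the gene, limited to the part of the 250 bases before the start that lies outside exons of the gene itself in GENCODE M21. For Dll1, the stretch before the start of transcript Dll1-201 is given, and for Notch1 that before the start of Notch1-201. Both stretches lie inside the deposited span of their gene, which reaches further upstream. Capitals mark the N-box CACNAG, bound by HES factors, on either strand. It occurs in the stretches of Notch1 and Notch2 only, and the other motifs searched next occur in none of them.
Notch1 promoter, chr2:26503825-26504072, minus strand: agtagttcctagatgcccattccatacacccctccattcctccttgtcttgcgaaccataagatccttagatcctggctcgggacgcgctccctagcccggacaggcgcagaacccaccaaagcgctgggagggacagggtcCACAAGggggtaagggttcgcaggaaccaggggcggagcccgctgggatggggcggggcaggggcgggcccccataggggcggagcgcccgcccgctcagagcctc
Notch4 promoter, chr17:34564045-34564267, plus strand: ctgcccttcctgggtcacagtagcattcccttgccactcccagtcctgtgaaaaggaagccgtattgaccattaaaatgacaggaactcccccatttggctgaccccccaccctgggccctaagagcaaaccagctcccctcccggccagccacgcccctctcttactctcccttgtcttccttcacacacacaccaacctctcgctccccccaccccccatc
Notch2 promoter, chr3:98013288-98013526, plus strand: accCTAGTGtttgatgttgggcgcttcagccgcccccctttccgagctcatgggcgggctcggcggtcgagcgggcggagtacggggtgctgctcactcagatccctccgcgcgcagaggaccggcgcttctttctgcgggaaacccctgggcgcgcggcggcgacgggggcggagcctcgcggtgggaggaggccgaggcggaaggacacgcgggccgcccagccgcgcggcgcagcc
Dll1 promoter, chr17:15375977-15376073, minus strand: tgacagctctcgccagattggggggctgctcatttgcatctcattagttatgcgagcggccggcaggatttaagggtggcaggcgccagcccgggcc
Jag1 promoter, chr2:137116645-137116770, minus strand: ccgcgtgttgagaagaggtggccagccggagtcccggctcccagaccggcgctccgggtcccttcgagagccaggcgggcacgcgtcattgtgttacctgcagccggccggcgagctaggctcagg

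The RBPJ core motif TGGGAA, searched on both strands, was in none of the 9 windows of 250 bases that the 8 members have, against 21.6% of 32851 RefSeq windows of that length. The N-box CACNAG was found in 4 of the 9 windows, those of Notch1, Notch2, Notch3 and Dll4, and in 36.7% of all windows. The E-box CACGTG was in none of the 9 and in 6.02% of all windows. The 2 N-box matches in the Notch3 window did not overlap each other. All results of this search are matches of letters in a short window only.

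Among the receptors, Notch1 (ENSMUSG00000026923, chromosome 2, 26457903 to 26516663, minus strand) had 27.0, 19.5 and 20.2 CPM in female libraries, against 115, 110 and 50.3 CPM in male libraries. All 3 female libraries lay below the lowest male library, which was male replicate 3. The log2 fold change was -2.05 ± 0.29 (SE, edgeR adjusted p = 0.000838), a level 4.13-fold lower in female. Without male replicate 3 it was -2.34 ± 0.12 (edgeR adjusted p = 9.71e-13).

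Notch4 (ENSMUSG00000015468, chromosome 17, 34564268 to 34588503, plus strand), a receptor known mainly from endothelium, had 8.04, 9.22 and 5.68 CPM in female libraries and 32.1, 36.1 and 30.9 CPM in male libraries. The sexes were far apart, and male replicate 3 was close to the other male libraries. The log2 fold change of Notch4 was -2.12 ± 0.19 (edgeR adjusted p = 4.08e-05), 4.34-fold lower in female, and -2.17 ± 0.17 without male replicate 3. The summed endothelial markers given above, nearly all Eng and Flt1, were lower in each female library than in each male one. None of the 4 tested endothelial markers passed, and the part of endothelial cells in the Notch4 difference was not tested.

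Notch2 (ENSMUSG00000027878, chromosome 3, 98013527 to 98150361, plus strand) moved the other way, with 215, 172 and 158 CPM in female libraries against 128, 117 and 63.8 CPM in male libraries. The lowest female library stood above the highest male one. The log2 fold change was 0.82 ± 0.24 (edgeR adjusted p = 0.0398), or 1.76-fold higher in female. This call was the least firm of the 5. Its adjusted p was 0.155, 0.101 and 0.0853 without female replicate 1, 2 or 3 and 0.0842 without male replicate 2, while without male replicate 3 the log2 fold change was 0.56 ± 0.11 (edgeR adjusted p = 0.00048).

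Notch3 (ENSMUSG00000038146, chromosome 17, 32120820 to 32166880, minus strand) had 31.4, 24.6 and 21.4 CPM in female libraries, against 43.3, 46.4 and 19.8 CPM in male libraries. The sexes overlapped through male replicate 3 alone. Its log2 fold change was -0.50 ± 0.29 (edgeR adjusted p = 0.285), which did not pass. Without male replicate 3 it was -0.80 ± 0.14 (edgeR adjusted p = 8.36e-05). Mural cell markers are given beside Notch3 because pericytes and smooth muscle express it: the summed level of 7 pericyte markers was 1694 to 1737 CPM in female libraries and 1681 to 2066 CPM in male ones. That of 9 smooth muscle markers was 135 to 136 CPM in female libraries and 147 to 180 CPM in male ones. Of 6 tested pericyte markers 1 was higher in female libraries and 3 were lower, and of 5 tested smooth muscle markers 1 was higher and 1 lower. Beside these counts, 18.3% of all tested genes were called, 9.68% as higher and 8.62% as lower. The abundant pericyte markers moved in opposite directions, with Rgs5 at 1312 CPM in female libraries and 970 CPM in male ones (edgeR adjusted p = 0.0314), and Pdgfrb at 352 CPM in female libraries and 831 CPM in male ones (edgeR adjusted p = 9.19e-05). So did the called markers of smooth muscle. Itga8 was at 15.9 CPM in female libraries and 4.89 CPM in male ones (edgeR adjusted p = 0.000465). Acta2 was at 3.23 CPM in female libraries and 20.3 CPM in male ones (edgeR adjusted p = 7.6e-05). Both were small parts of the summed smooth muscle level, and the other 3 tested smooth muscle markers did not pass. Myh11, which defines mature smooth muscle, was at 0.147 CPM in female libraries and 0.138 CPM in male ones. Their part in the Notch3 level was not tested.

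Because the receptor genes differ in length, their levels were compared as TPM (counts divided by the deposited gene length and scaled to a common total in each library). That length is fixed for each gene, and transcript lengths in these cultures were not measured, so levels between genes are approximate. In female libraries Notch2 led at 57.0 ± 11.0 TPM (SD, n = 3), followed by Notch3 at 10.8 ± 2.46, Notch1 at 5.28 ± 1.15 and Notch4 at 3.20 ± 0.765 TPM, and none of these 4 overlapped the next. In male libraries the order was Notch2 at 30.9 ± 12.6 TPM, Notch1 at 20.9 ± 9.61, Notch3 at 14.7 ± 6.77 and Notch4 at 13.0 ± 2.03 TPM. There each receptor overlapped the next, since male replicate 3 was low for 3 of them. Notch1 stood above Notch3 in every male library and below it in every female library. The ratio of Notch3 to Notch1 in TPM was 2.06, 2.23 and 1.87 in female libraries and 0.665, 0.748 and 0.697 in male libraries.

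The share of Notch2 in the receptor pool separated the sexes with little spread, also in male replicate 3. It was 74.6%, 74.1% and 75.4% of the summed receptor TPM in female libraries, against 40.5%, 37.7% and 37.6% in male libraries. Notch1 supplied 6.92% ± 0.497 of it in female and 25.6% ± 2.77 in male libraries (SD, n = 3), with no overlap between the sexes. Notch4 supplied 3.73%, 5.32% and 3.62% in female libraries and 13.6%, 15.6% and 24.4% in male libraries, so its share was highest in male replicate 3. The ratio of Notch2 to Notch1 in TPM was 10.5, 11.7 and 10.3 in female libraries and 1.47, 1.41 and 1.67 in male libraries. The pool as a whole was 93.1, 71.2 and 64.6 TPM in female libraries and 99.8, 94.6 and 44.1 TPM in male libraries, so the summed levels of the sexes overlapped. Shares and ratios over chosen members are given as descriptions, with no test.

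**Figure D3:**
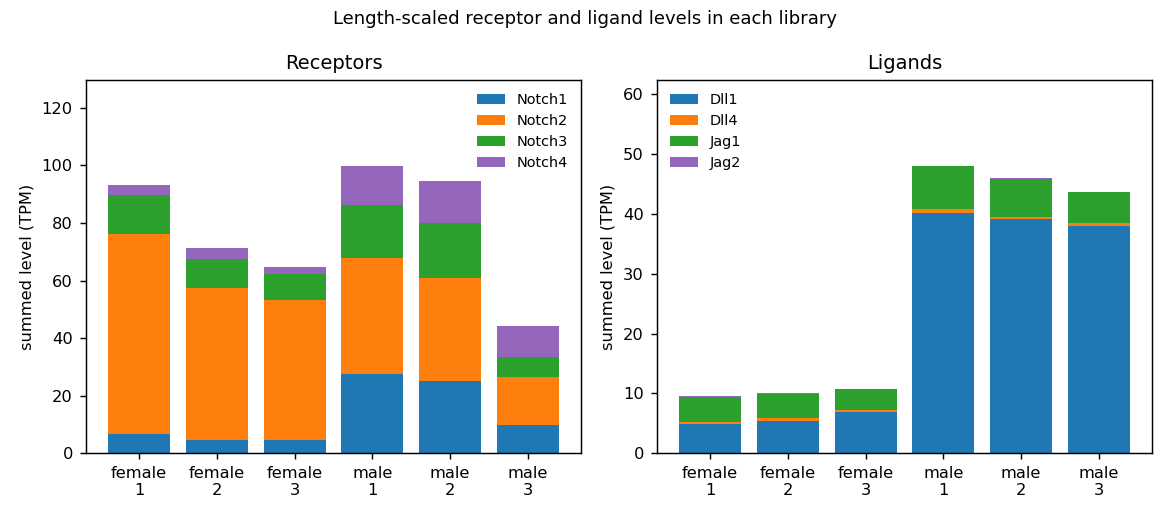
Stacked bars give the summed level in TPM (vertical axis, from 0) of the 4 receptor genes (left) and the 4 ligand genes (right) in each library (horizontal axis). Notch2 fills 74.1% to 75.4% of each female receptor bar, and the female ligand bars, at 9.64 to 10.8 TPM, are much lower than the male ones, at 43.6 to 47.9 TPM, which are mostly Dll1.

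Of the ligands, Dll1 (ENSMUSG00000014773, chromosome 17, 15367354 to 15376872, minus strand) had 5.89, 6.80 and 8.88 CPM in female libraries and 49.8, 50.4 and 57.2 CPM in male libraries. This was the largest change among the tested members, and replicates of each sex lay close together. Dll1 encodes a Delta-like ligand known from arterial endothelium and many developing tissues. Its log2 fold change was -2.86 ± 0.17 (edgeR adjusted p = 3.71e-06), a level 7.27-fold lower in female, and it ran from -3.05 to -2.74 with any single library left out. The lincRNA gene A930024N18Rik overlaps the start of Dll1 on the opposite strand, and no source used here states whether counting used the strand. This lincRNA had 14 counts in female and 40 in male libraries, and Dll1 had 458 counts in female and 3176 in male libraries.

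Jag1 (ENSMUSG00000027276, chromosome 2, 137081456 to 137116644, minus strand), the Jagged ligand most widely found in vessel walls, had 7.12, 6.97 and 6.11 CPM in female libraries and 12.2, 11.4 and 10.5 CPM in male libraries. The sexes did not overlap. Its log2 fold change was -0.76 ± 0.16 (edgeR adjusted p = 0.0087), 1.69-fold lower in female, and the adjusted p was 0.00142 to 0.045 with any single library left out.

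Dll4 and Jag2 were near the limit of detection. Dll4 (ENSMUSG00000027314, chromosome 2, 119325784 to 119335962, plus strand), the ligand of sprouting tip cells and arterial endothelium, had 8, 13 and 9 counts in female libraries and 17, 6 and 12 in male libraries. The log2 fold change was -0.26 ± 0.61 (edgeR adjusted p = 0.819), and the ratio of female to male over all libraries was 0.827 with a 95% interval of 0.491 to 1.39 (exact binomial, counting error only), so a difference of that size was not detectable at this depth. Gm14207 overlaps the start of Dll4 on the opposite strand and had 0 counts in female and 17 in male libraries. Jag2 (ENSMUSG00000002799, chromosome 12, 112907819 to 112929776, minus strand) had 8, 7 and 1 counts in female libraries and 1, 1 and 2 in male libraries. It was too low to enter the test, the sexes overlapped through female replicate 3, and the ratio of 3.86 had an interval of 1.25 to 15.9.

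In TPM, the ligand pool was small in female cultures, at 9.64, 10.1 and 10.8 TPM, and larger in male cultures, at 47.9, 45.9 and 43.6 TPM. Dll1 made up 56.0% ± 7.57 of it in female and 85.4% ± 1.80 in male libraries, and Jag1 38.5% ± 6.05 in female and 13.5% ± 1.71 in male libraries (SD, n = 3). In female libraries Dll1, at 5.73 ± 1.11 TPM, overlapped Notch1 and stood above Jag1, which at 3.90 ± 0.398 TPM overlapped Notch4. In male libraries Dll1, at 39.1 ± 1.04 TPM, stood above Jag1, at 6.19 ± 1.06 TPM, and overlapped Notch2. The ratio of Dll1 to Jag1 in TPM was 1.14, 1.35 and 2.01 in female libraries, against 5.64, 6.08 and 7.55 in male libraries.

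Neither target gene was called between the sexes, and one of them was abundant. Hes1 (ENSMUSG00000022528, chromosome 16, 30064384 to 30067796, plus strand), a transcriptional repressor that other pathways also turn on, had 31.3, 33.2 and 31.1 CPM in female libraries and 24.2, 26.0 and 36.4 CPM in male libraries. Male replicate 3 was the highest of all 6 libraries and made the sexes overlap. The log2 fold change was 0.14 ± 0.16 (edgeR adjusted p = 0.615), and 0.34 ± 0.12 (edgeR adjusted p = 0.035) without male replicate 3. Hes1 is short, at 2037 bases, and genes of its sixth by length had a median shift of 0.25 in that library on the log2 scale, against 0.53 for Hes1. Per length it was among the most abundant members, at 52.7 ± 1.81 TPM in female and 44.1 ± 5.22 TPM in male libraries. It overlapped Notch2 at the top of the order in female libraries and its range in male libraries lay above that of Dll1 and overlapped that of Notch2.

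Hey1 (ENSMUSG00000040289, chromosome 3, 8663359 to 8667256, minus strand), a target of Notch in arterial endothelium, had 0, 0 and 0 counts in female libraries and 3, 1 and 2 in male libraries. It was too low to enter the test. The interval of its ratio, female over male, reached up to 0.82 (exact binomial, counting error only), which rests on 6 counts in all, and no male library had more than the 3 counts that 0 counts in a library allow. Of 8 further genes of the HES and HEY families, 7 stayed under 1 CPM in every library, 3 of them, Hes2, Hes5 and Helt, at 0 counts throughout. Hey2 and Heyl had 0 counts in every female library and averaged 0.0147 and 0.121 CPM in male libraries. Hes6, with 13.8 ± 0.572 CPM in female libraries against 9.48 ± 1.99 CPM in male libraries, did not pass (0.54 ± 0.18, edgeR adjusted p = 0.0637), but did without male replicate 3 (0.72 ± 0.17, edgeR adjusted p = 0.00184). The feedback inhibitor gene Nrarp, a further Notch target, had 0 counts in all libraries.

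Of 62 other genes of the pathway, 48 were tested, of which 5 were higher and 2 lower in female libraries and 41 missed the threshold, which is 7 of 48 beside the 18.3% called over all genes. Their median log2 fold change was 0.02. These counts depended on the libraries. Without male replicate 3, 11 rose and 12 fell of 52 tested, where 32.7% of all tested genes were called. No member of the receptor sugar transferases (3 tested of 5) or of the ligand endocytosis genes (4 tested of 5), which let ligand pull on the receptor, passed the test. Mfng had 0 counts throughout.

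Among the 10 cleavage genes 1 rose, 1 fell and 8 did not pass. Both are ADAM proteases that cut Notch at the cell surface. Adam17 averaged 197 ± 3.46 CPM in female libraries, against 152 ± 10.1 CPM in male ones (log2 fold change 0.37 ± 0.10, edgeR adjusted p = 0.03). Adam10 averaged 160 ± 9.07 CPM in female libraries and 234 ± 48.0 CPM in male ones (-0.55 ± 0.15, edgeR adjusted p = 0.0328), with male replicate 3 the lowest male library at 181 CPM. Without it the log2 fold change of Adam10 was -0.70 ± 0.09. The adjusted p of Adam10 was 0.0745 to 0.14 without any one library other than male replicate 3, and that of Adam17 0.12 to 0.135 without any one female library or male replicate 2. The gamma-secretase subunit genes Ncstn, Aph1a, Aph1b, Aph1c and Psenen did not pass.

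In the nucleus, the coactivator gene Maml3 had 54.1, 50.8 and 49.5 CPM in female libraries and 30.7, 27.5 and 18.4 CPM in male libraries. The sexes did not overlap, and its log2 fold change was 1.01 ± 0.18 (edgeR adjusted p = 0.00311), and 0.82 ± 0.11 without male replicate 3. It was called alone among 8 genes of the nuclear complex, while Rbpj, with 438 ± 21.6 CPM in female libraries against 345 ± 67.5 CPM in male libraries, did not pass (0.34 ± 0.15, edgeR adjusted p = 0.15). The log2 fold change of Rbpj was 0.21 ± 0.10 (edgeR adjusted p = 0.102) without male replicate 3, and 0.49 ± 0.13 (edgeR adjusted p = 0.0289) without male replicate 1. Of 11 co-repressors, which hold Notch targets silent, 1 rose and 1 fell, both of the Groucho family. Tle1 had 75.8, 67.2 and 74.6 CPM in female libraries and 43.0, 51.2 and 51.6 CPM in male ones (0.58 ± 0.12, edgeR adjusted p = 0.00684). Tle2 had 35.3, 30.7 and 29.0 CPM in female and 53.5, 60.8 and 61.5 CPM in male libraries (-0.89 ± 0.12, edgeR adjusted p = 0.000671).

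Of the 9 tested inhibitors and turnover genes, 1 rose and 8 did not pass. Dtx3l, a Deltex family ubiquitin ligase also known as an interferon-induced gene, had 20.6, 21.0 and 20.2 CPM in female libraries and 13.3, 11.0 and 9.27 CPM in male libraries (0.88 ± 0.16, edgeR adjusted p = 0.00387). Numb, which directs receptors to degradation, did not pass (-0.32 ± 0.14, edgeR adjusted p = 0.144), but did without male replicate 3 (-0.38 ± 0.13, edgeR adjusted p = 0.0263). The non-canonical ligand gene Dlk1, an imprinted gene that can bind Notch receptors but lacks the Delta domain that activates them, had the clearest rise among these genes. It stood at 139, 144 and 146 CPM in female libraries, against 34.7, 38.9 and 52.6 CPM in male libraries (1.77 ± 0.16, edgeR adjusted p = 3.84e-05).

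**Figure D4:**
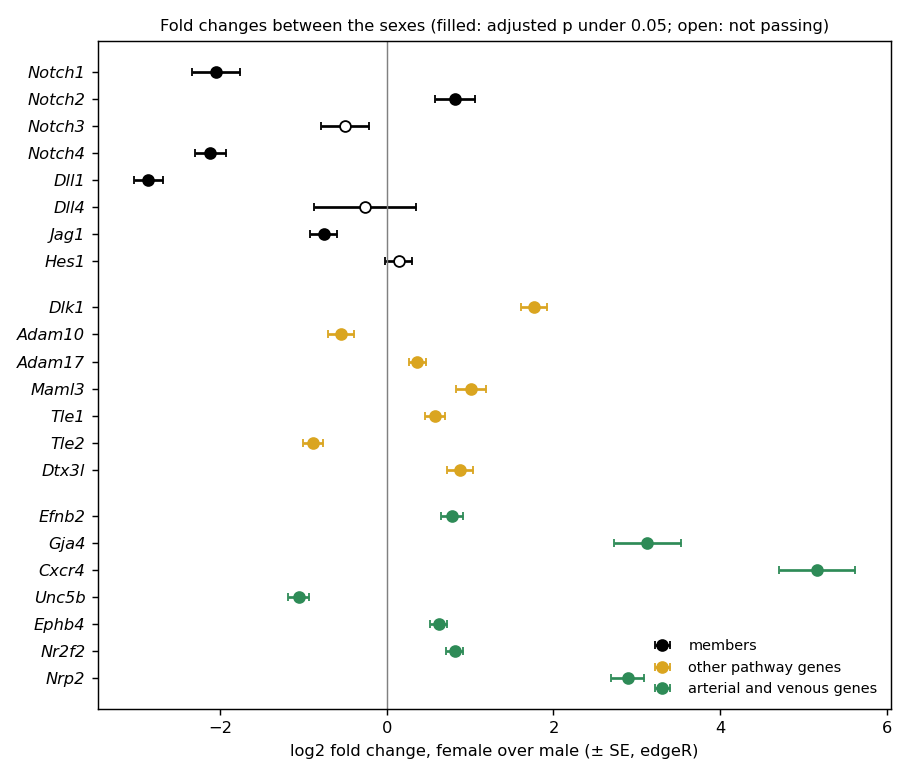
Log2 fold change, female over male, with its SE from edgeR (horizontal axis), for the 8 tested members and for called genes of the other pathway and the arterial and venous lists (vertical axis). Filled points passed an adjusted p under 0.05. Dll1, at -2.86, lies lowest and Cxcr4, at 5.16, highest.

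Genes that mark arteries and veins were set beside the members because Notch signalling separates these identities in endothelium. Of 10 tested genes 6 were higher in female libraries, 1 was lower and 3 missed the threshold, against 18.3% called over all genes. On the arterial side, the ephrin gene Efnb2 had 246, 208 and 235 CPM in female libraries and 147, 141 and 113 CPM in male libraries (0.78 ± 0.13, edgeR adjusted p = 0.0022). The connexin gene Gja4 averaged 4.22 ± 0.311 CPM in female libraries and 0.479 ± 0.247 CPM in male ones (3.13 ± 0.41, edgeR adjusted p = 0.000472). The chemokine receptor gene Cxcr4 averaged 3.74 ± 0.547 CPM in female libraries and 0.0982 ± 0.0441 CPM in male ones (5.16 ± 0.45, edgeR adjusted p = 3.59e-05), and both were low even where they rose. The netrin receptor gene Unc5b fell to 189 ± 7.50 CPM in female, against 393 ± 56.1 CPM in male libraries (-1.05 ± 0.13, edgeR adjusted p = 0.000272).

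The 3 tested genes of the venous side all rose. Nr2f2, a transcription factor that represses Notch genes in veins, averaged 279 ± 11.4 CPM in female libraries and 159 ± 9.29 CPM in male ones (0.81 ± 0.10, edgeR adjusted p = 0.000351). Ephb4, the receptor of Efnb2, averaged 113 ± 2.77 CPM in female libraries and 73.4 ± 5.97 CPM in male ones (0.62 ± 0.10, edgeR adjusted p = 0.00231). The semaphorin and VEGF co-receptor gene Nrp2 averaged 104 ± 12.4 CPM in female libraries and 13.9 ± 3.60 CPM in male ones (2.89 ± 0.20, edgeR adjusted p = 7.91e-06), with a log2 fold change of 2.70 ± 0.12 without male replicate 3. Fibroblasts and other mesenchymal cells express Nr2f2, Nrp2 and Efnb2 too. Of the 10 fibroblast markers 9 were tested, of which 5 rose and 1 fell in female libraries and 3 did not pass. Over all tested genes 9.68% were called higher and 8.62% lower. The 4 tested endothelial markers did not pass. The part of such cells in these differences was not tested.

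The genes most like each member over the 6 libraries, by Pearson correlation of log2 CPM among 11159 or 11160 tested genes with a mean of at least 50 counts and a symbol that is not a Gm, Rik or other clone name, are named as a description. These points share the libraries, their depth and the sex groups. For Dll1 these were Notum, which encodes an enzyme that inactivates Wnt proteins (r = 0.9997), and the orphan receptor gene Gpr27 (0.9993). Notum averaged 0.511 CPM in female libraries and 98.8 CPM in male ones, and Gpr27 0.0899 CPM in female libraries and 15.3 CPM in male ones. For Notch4 they were Gpr176 (0.9994) and Rhbdf2 (0.998), for Notch1 Msn (0.9992) and the cyclin gene Ccnd2 (0.9988), and for Jag1 Plekhg1 (0.999) and Lman2 (0.9982). Notch2 was followed most closely by the laminin gene Lamc1 (0.9976) and Pkd2 (0.9975), Notch3 by Thada (0.9968) and Extl3 (0.9961), and Hes1 by Dnajc30 (0.9944) and Fuca1 (0.9934). Dll4, with few counts, reached 0.971 with Cyp2j6 and 0.926 with Cldn12.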

How the data were processed

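Per the labels, mRNA of untreated cultures was sequenced in 6 libraries grouped by sex. The authors deposited counts, whole reads per gene and library without normalization, and per the submitters' processing notes used HISAT2 2.0.5 and featureCounts 1.5. The sources used here give neither genome build nor strand setting. Coordinates are those of the deposited table, and 9 of the 10 members have the same ones in GENCODE M21 (GRCm38). Of all identifiers 99.8% were found there.

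Genes were filtered with filterByExpr (minimum count 10) and tested between the sexes with edgeR 4.0.16 in R 4.3.3 (TMM, robust quasi-likelihood F test, Benjamini-Hochberg over 14932 genes, called under 0.05). The SE was taken from the fold change and F. TPM used the deposited gene length. The fit was tested on simulated data. Replicates differed by more than sampling noise (chi-square per degree of freedom 7.43 to 70.8). Members and lists were chosen with earlier results of these data known. Named were all members, every called gene of the pathway and arterial and venous lists, abundant or defining markers, sex-linked genes as a check, and the 2 genes most like each tested member. Genes outside this rule, chosen after their values were seen, are those named as not passing, at or near 0, overlapping, or, among fibroblast markers, lower in female libraries.

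Alternatives were RLE scaling, DESeq2 1.42.0, limma-voom 3.58.1 with quality weights, no filter, a mean of 50 or more counts, a block by replicate number, leaving out each library, an adjusted p under 0.01 and CPM for TPM. An offset for gene length was chosen after seeing the data.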

Additional observations from a re-analysis of the deposited data

How the results depend on the processing

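Dll1, Notch4, Notch1 and Jag1 kept their direction and their call under every alternative run, the adjusted p under 0.01 included. Notch2 kept its direction throughout, and lost its call at an adjusted p under 0.01 and in the 4 fits with 1 library left out that are given with it. Notch3 passed with limma-voom (-0.82, adjusted p = 0.000475), without a filter (-0.51, adjusted p = 0.0124) and without male replicate 3, and Hes1 with limma-voom (0.31, adjusted p = 0.0125) and without male replicate 3. The sign of Dll4, never called, turned with limma-voom (0.75) and without male replicate 1, with a range of -0.64 to 0.065 over the fits without 1 library. Adam17 missed the threshold without a filter (adjusted p = 0.0517). With the length offset Notch1, Notch2 and Notch3 stood at -1.94, 0.88 and -0.48. Members called higher were 2 with limma-voom, 0 at an adjusted p under 0.01 and 0 to 2 with a library left out (4 to 5 lower).

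Over all genes 1446 were higher and 1287 lower, limma-voom called 3289 and 3283, an adjusted p under 0.01 left 900 and 835, and leaving out a library gave 967 to 2511 and 903 to 2540, the highest without male replicate 3. Of other pathway genes, DESeq2 called 8 higher and 4 lower, limma-voom 14 and 16, no filter 8 and 4, the length offset 9 and 7, leaving out a library 4 to 11 and 1 to 12, and an adjusted p under 0.01 left 1 lower. Of arterial and venous genes, 2 were lower with limma-voom and 1 to 2 with a library left out. The share of the receptor pool, female minus male, was 36.1 percentage points for Notch2 and -18.7 for Notch1 in TPM, and 37.7 and -24.7 in CPM, which weighs long genes more. The cause of the other changes was not tested.

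Replicate numbers were not shown to pair the libraries: deviations of same-numbered libraries correlated at 0.262, -0.0324 and 0.18, and female replicate 2 was most like male replicate 3. With the replicate block the members' counts were 1 and 4, and 8 other pathway genes were higher and 3 lower. Counts near 0 limit Dll4, Jag2 and Hey1. Without a filter the adjusted p was 0.516 for Jag2 and 0.339 for Hey1.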
